A study of Mus musculus with 8 samples.

Results

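The 10 genes described here encode proteins that anchor muscle and other cells to the matrix through integrins: Itga7, Itgb1, Itga5, Vcl, Tln1, Tln2, Ilk, Parva, Lims1 and Itgb1bp2. They were picked out by gene symbol from a list of names, which was drawn up with earlier results of these data known, and all 10 were found among the 14578 genes of the deposited table. All 10 passed the filter on low values, which kept 13783 genes that reached a value of 1 in 2 or more libraries. The genes were measured through 34 transcripts, of which 31 passed the same filter.

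RNA was taken from the left ventricle of mice aged 6 months and sequenced in 8 libraries. There were 3 libraries from mdx mice with sln+/- (mdx sln+/-), 3 from mdx mice and 2 from wild-type (WT) mice. All mice had a C57 genetic background, per the labels. The mdx mouse carries a mutation in Dmd and lacks full-length dystrophin, and sln+/- stands for 1 functional copy of Sln, which encodes sarcolipin, an inhibitor of the calcium pump of the sarcoplasmic reticulum. The mutation is present in every cell, so the comparison is not limited to cardiomyocytes. Sln itself was not analysed here, and its lost allele could not be checked.

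Integrins are heterodimers of an alpha and a beta subunit that bind matrix proteins outside the cell and the actin cytoskeleton inside it. In striated muscle they gather at costameres, rib-like sites that tie the Z-discs to the sarcolemma, where the dystrophin complex forms a parallel link to laminin. Talin binds the beta tail and actin, vinculin reinforces that link under load, and a complex of integrin-linked kinase, PINCH and parvin forms a further bridge to actin. In mdx skeletal muscle the laminin-binding α7 subunit is known to be abundant, and extra α7 eases the disease in dystrophic mice.

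The labels were checked first through Dmd. Its log2 level was 4.09, 4.10 and 4.25 in the mdx sln+/- libraries, 4.30, 4.32 and 4.22 in the mdx libraries and 6.60 and 6.98 in the WT libraries, so no library of either mdx group reached a WT library. Values are log2(abundance + 1), and the abundances of a library summed to between 780262 and 924253. The values are not counts, so the depth is unknown. The labels do not tie each library to its own animal, and the p-values therefore cover no more than the spread among these libraries. In a bulk sample, fewer cells of a type and less RNA per cell cannot be told apart. Levels are not compared between genes, because no source used here says if the values take transcript length into account. One term that sets mdx 2 and mdx sln+/- 2 apart had been removed from the values before deposit. It was fitted again so that its degree of freedom is counted. Wherever mdx 2 or mdx sln+/- 2 is left out below, the term takes up the other, so neither library counts in that estimate. Where only WT and 1 mdx group are fitted, the term takes up replicate 2 of that group. Each library has a pair of value columns, r1 and r2, which were averaged. Library names come in an indexed style (mdx 1, mdx 2, mdx sln+/- 1 and mdx sln+/- 2) and a plain style (mdx 3, mdx sln+/- 3 and both WT libraries), and what the styles mean is not given.

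In the mdx ventricle 2 of the 10 genes rose relative to WT, and 0 fell. Itga5, the alpha subunit of the fibronectin receptor, rose 1.5-fold, and Tln1, the talin that most cell types use, rose 1.37-fold. The laminin-receptor subunit Itga7, the muscle talin Tln2 and the muscle chaperone-like protein gene Itgb1bp2 had higher values in every mdx library than in any WT library but did not pass the test. With Itga5 and Tln1 these make 5 of the 10 genes with no overlap and mdx higher, which 27.8% of all genes tested showed. The shared beta subunit Itgb1, vinculin, the integrin-linked kinase gene Ilk and the parvin gene Parva overlapped between the groups. Across all genes tested 15.1% passed at an adjusted p of 0.05 in this comparison and 8.15% passed as higher, against which the 2 of 10 stand. The median log2 fold change was 0.16 over the 10 genes and 0.02 over all genes tested.

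**Figure D1:**
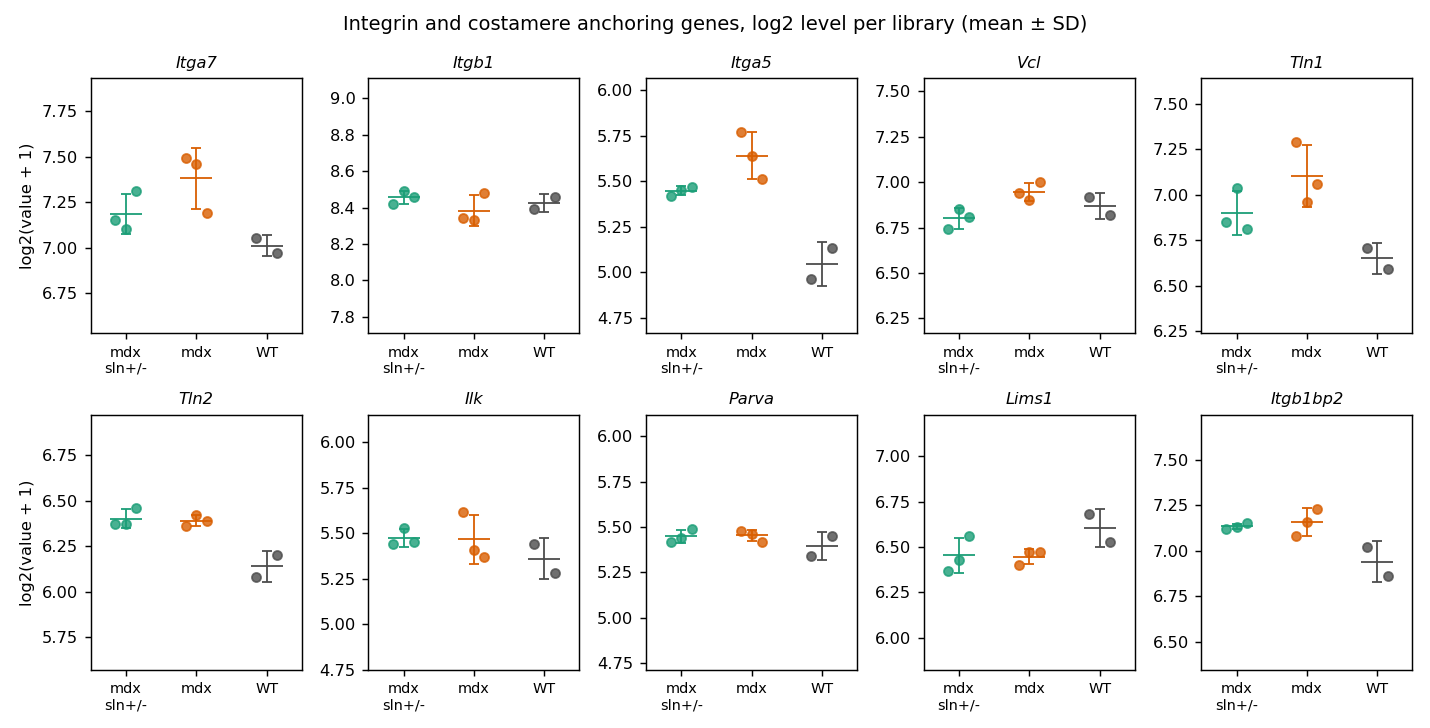
Log2 level, log2(value + 1), of each of the 10 genes in every library of mdx sln+/- (n = 3), mdx (n = 3) and WT (n = 2); points are libraries and bars the mean ± SD, with y axes of equal height in log2 units that do not start at 0. Itga5 lies at 5.42 to 5.47 in mdx sln+/-, 5.51 to 5.77 in mdx and 4.96 to 5.13 in WT, while the groups of Itgb1 overlap.

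Among the integrin subunits, Itga5 (ENSMUSG00000000555) lies on chromosome 15 from 103344286 to 103366763, minus strand (GRCm38/mm10, GENCODE M21). It encodes α5, which pairs with β1 to bind fibronectin. Its log2 level was 5.42, 5.45 and 5.47 in mdx sln+/- 1, 2 and 3, 5.77, 5.64 and 5.51 in mdx 1, 2 and 3, and 4.96 and 5.13 in WT 1 and 2. All 6 libraries of the mdx groups lay above both WT libraries, and the mdx libraries lay above the mdx sln+/- libraries. The mean was 5.64 ± 0.13 in mdx (SD, n = 3) and 5.05 ± 0.12 in WT (SD, n = 2). The difference was 0.59 ± 0.10 on the log2 scale (standard error; 95% interval 0.36 to 0.82; limma, adjusted p = 0.0126). With name style as a further term the same difference was 0.54 (limma, adjusted p = 0.053). In plain-named libraries only, with 1 mdx library against 2 WT libraries, it was 0.46 and not called. With only the 2 groups in the fit it was 0.59 (limma, adjusted p = 0.0613). That fit rests on mdx 1 and mdx 3, because the term takes up mdx 2. Left out in turn, no single library ended the call.

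Itga7 (ENSMUSG00000025348; chromosome 10, 128933818 to 128958282, plus strand) encodes α7, the main laminin-binding alpha subunit of striated muscle. Its log2 level was 7.15, 7.10 and 7.31 in mdx sln+/- 1, 2 and 3, 7.49, 7.46 and 7.19 in mdx 1, 2 and 3, and 7.05 and 6.97 in WT 1 and 2. Every mdx library was above both WT libraries, but mdx 3 lay among the mdx sln+/- libraries. Between mdx and WT it differed by 0.37 ± 0.12 (95% interval 0.10 to 0.65; limma, adjusted p = 0.0745), 1.29-fold, and did not pass. Without mdx 3 the estimate was 0.51 and passed (limma, adjusted p = 0.0251). Without mdx 1 it was 0.29 and did not pass (limma, adjusted p = 0.205). The refitted term shifts both estimates, so they are not plain differences of the means that remain. With name style as a further term the difference was 0.34 (limma, adjusted p = 0.213). Over 22 alternative fits it ranged from 0.18 to 0.51 and passed in 2.

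Itgb1 (ENSMUSG00000025809; chromosome 8, 128685654 to 128733200, plus strand) encodes β1, the partner of both alpha subunits. It read 8.42, 8.49 and 8.46 in mdx sln+/- 1, 2 and 3, 8.34, 8.33 and 8.48 in mdx 1, 2 and 3, and 8.39 and 8.46 in WT 1 and 2. The groups overlapped. The difference of mdx from WT was -0.03 ± 0.08 (limma, adjusted p = 0.799), and its 95% interval of -0.22 to 0.15 leaves room for a change of that size in either direction.

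Of the talins, which switch integrins on and carry their load to actin, Tln1 (ENSMUSG00000028465; chromosome 4, 43531519 to 43562691, minus strand) had a log2 level of 6.85, 7.04 and 6.81 in mdx sln+/- 1, 2 and 3, 7.29, 6.96 and 7.06 in mdx 1, 2 and 3, and 6.71 and 6.59 in WT 1 and 2. No mdx or mdx sln+/- library fell to the WT levels, and mdx 1 was the highest of the 8. In mdx it was higher than in WT by 0.45 ± 0.12 (95% interval 0.17 to 0.74; limma, adjusted p = 0.0469). This call sat at the threshold, and it ended without WT 1 (0.51, adjusted p = 0.087), WT 2 (0.40, adjusted p = 0.185), mdx 1 (0.32, adjusted p = 0.114), mdx 3 (0.48, adjusted p = 0.0869), mdx sln+/- 1 (0.46, adjusted p = 0.0878) or mdx sln+/- 3 (0.47, adjusted p = 0.0628). It also ended with median-ratio scaling (0.43, adjusted p = 0.0594) and upper-quartile scaling (0.44, adjusted p = 0.0516). Tln1 shares 360 exon bases with Creb3 on the other strand, and no source used here says if reads were counted by strand.

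Tln2 (ENSMUSG00000052698; chromosome 9, 67217087 to 67559703, minus strand), the talin that is most abundant in striated muscle and brain, read 6.37, 6.37 and 6.46 in mdx sln+/- 1, 2 and 3, 6.36, 6.42 and 6.39 in mdx 1, 2 and 3, and 6.08 and 6.20 in WT 1 and 2. Both mdx groups lay together above WT. Relative to WT, mdx was higher by 0.25 ± 0.07 (limma, adjusted p = 0.0559), 1.19-fold, just short of the threshold. In the r1 columns alone it was 0.29 and passed (limma, adjusted p = 0.0473). In the r2 columns alone it was 0.21 and did not (limma, adjusted p = 0.118). Over 22 alternative fits it ranged from 0.15 to 0.31 and passed in 2.

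Vcl (ENSMUSG00000021823; chromosome 14, 20929398 to 21033676, plus strand) encodes vinculin, which binds talin and actin at sites under tension. Its log2 level was 6.74, 6.85 and 6.81 in mdx sln+/- 1, 2 and 3, 6.94, 6.90 and 7.0 in mdx 1, 2 and 3, and 6.92 and 6.82 in WT 1 and 2. WT overlapped both of the other groups. For mdx minus WT the value was 0.08 ± 0.07 (95% interval -0.10 to 0.25; limma, adjusted p = 0.502). Vcl shares 2090 exon bases with Ap3m1 on the other strand, so reads of the pair cannot be told apart without strand.

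The kinase, PINCH and parvin genes did not pass. Ilk (ENSMUSG00000030890; chromosome 7, 105736592 to 105742925, plus strand), which encodes the scaffold of the complex, read 5.44, 5.53 and 5.45 in mdx sln+/- 1, 2 and 3, 5.62, 5.41 and 5.37 in mdx 1, 2 and 3, and 5.44 and 5.28 in WT 1 and 2. Its groups overlapped, with mdx against WT at 0.11 ± 0.10 (limma, adjusted p = 0.508). Ilk shares 2106 exon bases with Taf10 and 355 with Rrp8 on the other strand, so its level is uncertain. Parva (ENSMUSG00000030770; chromosome 7, 112427505 to 112591692, plus strand), an actin-binding parvin, read 5.42, 5.44 and 5.49 in mdx sln+/- 1, 2 and 3, 5.48, 5.46 and 5.42 in mdx 1, 2 and 3, and 5.34 and 5.45 in WT 1 and 2. All 8 libraries lay close together, and the difference of mdx from WT was 0.06 ± 0.07 (limma, adjusted p = 0.611).

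Lims1 (ENSMUSG00000019920; chromosome 10, 58323466 to 58424691, plus strand), which encodes the adaptor PINCH, was the 1 gene of the 10 whose mdx libraries all lay below WT. It read 6.37, 6.43 and 6.56 in mdx sln+/- 1, 2 and 3, 6.40, 6.47 and 6.47 in mdx 1, 2 and 3, and 6.68 and 6.53 in WT 1 and 2. The difference of mdx from WT was -0.16 ± 0.09 (95% interval -0.37 to 0.04; limma, adjusted p = 0.242), and mdx sln+/- 3 overlapped WT. Of all genes tested, 23.6% had every mdx library below WT.

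Itgb1bp2 (ENSMUSG00000031312; chromosome X, 101449088 to 101453541, plus strand) encodes melusin, a striated-muscle protein that binds the β1 tail and is known to protect the mouse heart under pressure overload. It read 7.12, 7.13 and 7.15 in mdx sln+/- 1, 2 and 3, 7.08, 7.16 and 7.23 in mdx 1, 2 and 3, and 7.02 and 6.86 in WT 1 and 2. Every library of the mdx groups was above both WT libraries. The difference of mdx from WT was 0.22 ± 0.08 (limma, adjusted p = 0.107) and did not pass.

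**Figure D2:**
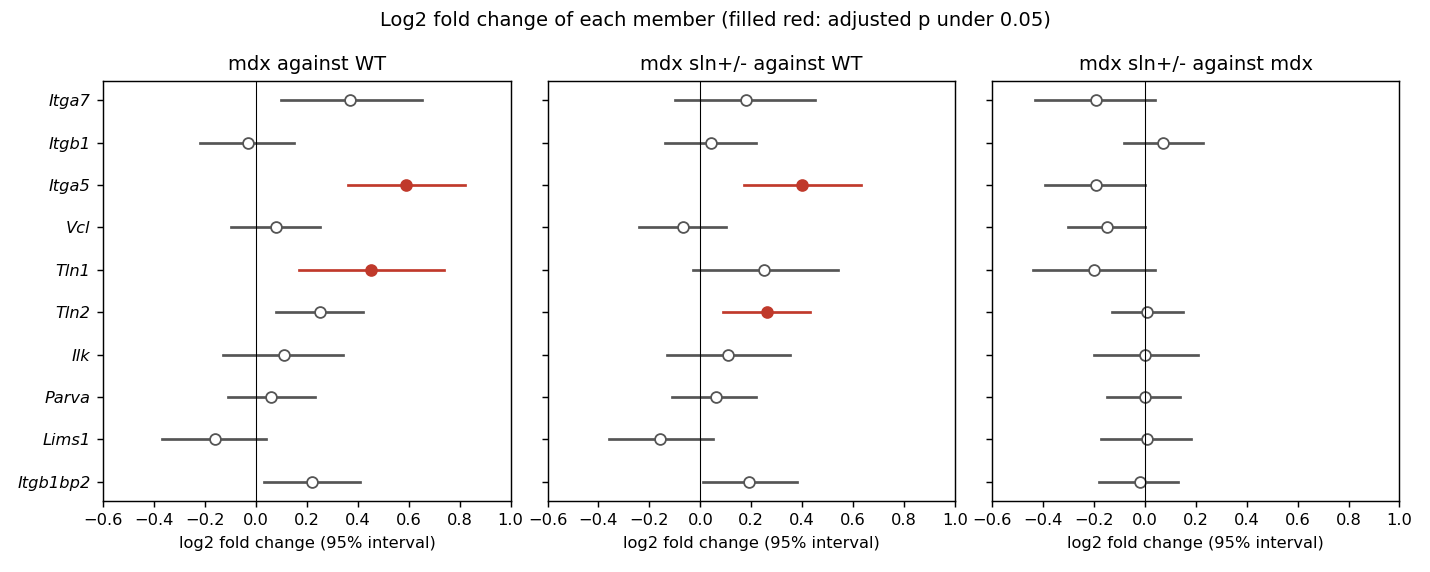
Log2 fold change of each of the 10 genes with its 95% interval (x axis) in mdx against WT, mdx sln+/- against WT and mdx sln+/- against mdx; filled red points passed an adjusted p of 0.05. Itga5 stands at 0.59, 0.40 and -0.19 and Tln1 at 0.45, 0.25 and -0.20 in these panels.

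The loss of 1 Sln allele was assessed by mdx sln+/- against mdx, and none of the 10 genes passed (limma). The same held for all genes tested, of which 0% were called and the smallest adjusted p was 0.477, while 1186 genes (8.6%) had an unadjusted p under 0.05. Of the 10, 0 had an unadjusted p under 0.05. The values nearest to it were those of Vcl and Itga5, the only ones of the 10 whose groups did not overlap. Vcl averaged 6.80 ± 0.06 in mdx sln+/- and 6.95 ± 0.05 in mdx (SD, n = 3 each), a difference of -0.15 ± 0.06 (95% interval -0.30 to 0.00; limma, adjusted p = 0.578). Itga5 averaged 5.44 ± 0.02 in mdx sln+/- and 5.64 ± 0.13 in mdx (SD, n = 3 each), a difference of -0.19 ± 0.08 (95% interval -0.39 to 0.00; limma, adjusted p = 0.585). Every mdx sln+/- library was below every mdx library in 8% of all genes tested.

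Tln1 and Itga7 differed between mdx sln+/- and mdx by about as much as Itga5, with overlapping groups. Tln1 averaged 6.90 ± 0.12 in mdx sln+/- and 7.10 ± 0.16 in mdx, a difference of -0.20 ± 0.10 (95% interval -0.44 to 0.04; limma, adjusted p = 0.617). Itga7 averaged 7.19 ± 0.11 in mdx sln+/- and 7.38 ± 0.17 in mdx, a difference of -0.19 ± 0.10 (95% interval -0.43 to 0.04; limma, adjusted p = 0.618). Itgb1 differed by 0.07 ± 0.07 (95% interval -0.08 to 0.23). Tln2, Ilk, Parva, Lims1 and Itgb1bp2 differed by -0.02 to 0.01, with intervals within -0.20 to 0.21.

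Against WT, mdx sln+/- had 2 of the 10 genes called, Itga5 and Tln2, both higher. Here 15.9% of all genes tested were called and 9.41% were called as higher, and the comparison shares its WT libraries with mdx against WT. Itga5 averaged 5.44 ± 0.02 in mdx sln+/- (SD, n = 3) and 5.05 ± 0.12 in WT (SD, n = 2), a difference of 0.40 ± 0.10 (limma, adjusted p = 0.037), 1.32-fold. That call ended without either WT library (0.31 without WT 1 and 0.48 without WT 2). It also ended without mdx 2 (0.40, limma, adjusted p = 0.0651) or without any of the mdx sln+/- libraries (0.38 to 0.41). The fits without mdx 2 and without mdx sln+/- 2 both rest on neither of these libraries. With median-ratio scaling the call ended too (0.34, limma, adjusted p = 0.0729), as it did with upper-quartile scaling (0.36, limma, adjusted p = 0.0607).

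Tln2 averaged 6.40 ± 0.05 in mdx sln+/- and 6.14 ± 0.08 in WT, a difference of 0.26 ± 0.07 (limma, adjusted p = 0.0484), 1.20-fold. Like the other call it was close to the threshold: it ended without each library in turn except mdx 1 (0.20 to 0.32), and with median-ratio (0.20, adjusted p = 0.0961) and upper-quartile scaling (0.22, adjusted p = 0.0821). With replicate number as a block its adjusted p was 0.0528. Tln1 stood at 0.25 ± 0.12 (limma, adjusted p = 0.188), Itga7 at 0.18 ± 0.12 (0.319) and Itgb1bp2 at 0.19 ± 0.08 (0.136), each without overlap between the groups. Lims1 (-0.16), Ilk (0.11), Vcl (-0.07), Parva (0.06) and Itgb1 (0.04) overlapped. A gap without overlap in that direction was seen in 36.4% of all genes tested.

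Behind the gene totals lie transcripts with different exons. Mouse α7 is known to be made with alternative extracellular segments and alternative cytoplasmic tails through exon choice. The exons below are each present in 1 measured transcript and absent from another (GRCm38, GENCODE M21, 5′ to 3′); capitals mark the exon and lower case up to 15 bases of the neighbouring exons. The first line is the fifth exon of Itga7-201 (120 bases, chr10:128941822-128941941, plus strand) and the second line the exon that takes its place in Itga7-202 (132 bases, chr10:128941445-128941576). The third line is exon 3 of 4 of the short transcript Itga7-204 (113 bases, chr10:128956611-128956723), which lies before the last exon and is absent from Itga7-201. The fourth line is the start of exon 2 of Itga5-202 (60 bases, chr15:103359912-103359971, minus strand), shown up to the end of its annotated coding part, which takes 19 of the 60 bases.
Itga7-201 exon: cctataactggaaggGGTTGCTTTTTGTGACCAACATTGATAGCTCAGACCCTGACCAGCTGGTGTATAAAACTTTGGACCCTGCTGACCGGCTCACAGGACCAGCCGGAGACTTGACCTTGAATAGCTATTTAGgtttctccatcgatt
Itga7-202 exon: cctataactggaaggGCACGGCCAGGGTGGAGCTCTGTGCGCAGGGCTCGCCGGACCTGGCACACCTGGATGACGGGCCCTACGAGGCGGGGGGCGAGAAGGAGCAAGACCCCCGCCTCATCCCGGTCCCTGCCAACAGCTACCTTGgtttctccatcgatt
Itga7-204 exon: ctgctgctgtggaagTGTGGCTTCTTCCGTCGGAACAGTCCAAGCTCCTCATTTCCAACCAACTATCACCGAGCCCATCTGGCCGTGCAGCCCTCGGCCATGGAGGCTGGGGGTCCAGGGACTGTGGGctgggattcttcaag
Itga5-202 exon: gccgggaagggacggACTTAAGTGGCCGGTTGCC

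**Figure D3:**
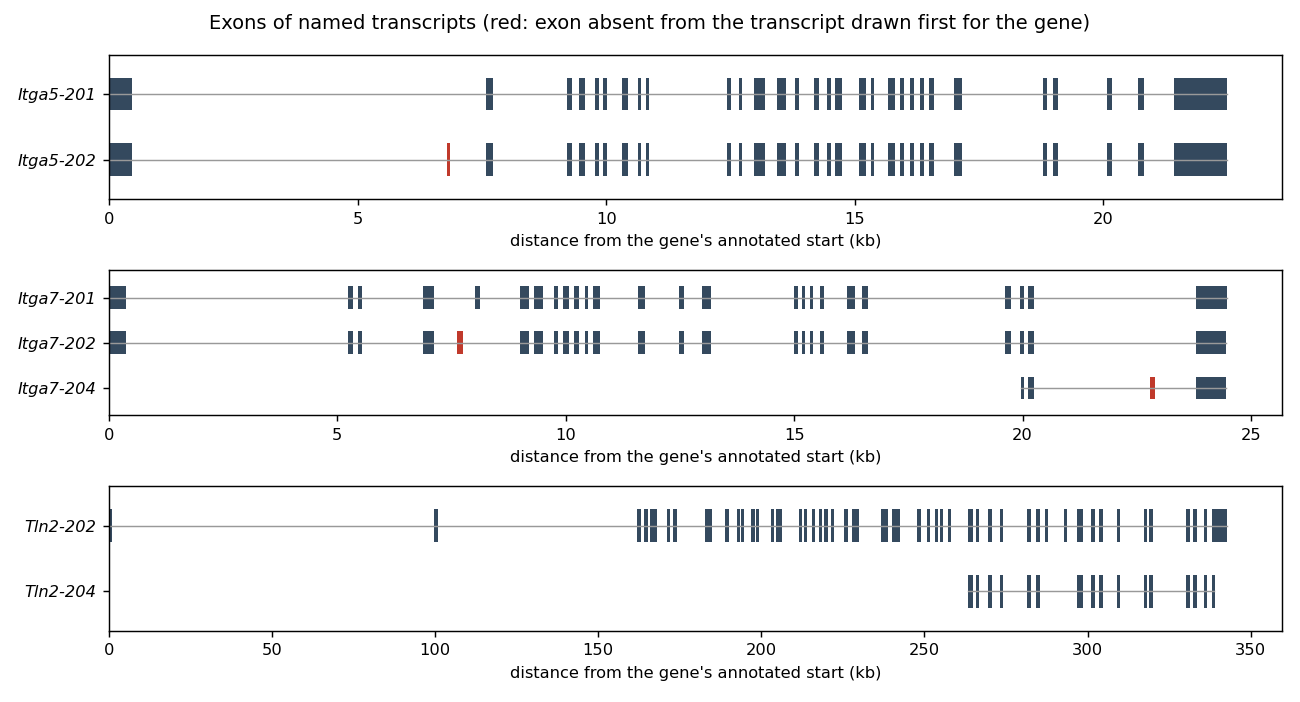
Exons (boxes) of the named transcripts of Itga5, Itga7 and Tln2, 5′ to 3′, by distance from the annotated start of the gene in kb; red boxes are exons absent from the first transcript drawn for that gene, and boxes too narrow to see are widened. Itga7-204 and Tln2-204 hold only the 3′ part of their genes, and Itga5-202 holds 1 short exon near the start that Itga5-201 lacks.

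The 2 exons of Itga7 have lengths that are multiples of 3 and share their flanking bases, so the lines show a swap of 1 segment for another. The exon of Itga7-204 has a length that is not a multiple of 3, so it shifts the reading frame of the last exon relative to a transcript without it. Itga7-204 is annotated without its start: it has 984 bases, of which 871 are shared with Itga7-201. Itga5-202 is annotated as a target of nonsense-mediated decay, with 246 coding bases against 3159 in Itga5-201. The sources used here do not say which α7 form each transcript encodes. Transcript values rest on how shared reads were divided, so all are uncertain.

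Of the 31 transcripts tested, 3 passed as higher in mdx against WT and 0 as lower, where 8.29% of all 29021 transcripts tested were called and 4.23% were called as higher (limma, adjusted over all of them). Itga7-204 read 3.68, 3.47 and 3.81 in mdx sln+/- 1, 2 and 3, 3.27, 3.60 and 3.40 in mdx 1, 2 and 3, and 2.49 and 1.23 in WT 1 and 2. Every library of the mdx groups lay above both WT libraries, which were themselves far apart. The difference of mdx from WT was 1.56 ± 0.34 (adjusted p = 0.0357), 2.95-fold. Without WT 2 it was 0.93 and did not pass (adjusted p = 0.0684), and the call also ended without any 1 library of the mdx or mdx sln+/- groups (1.47 to 1.68). Without WT 1 it was 2.20 (adjusted p = 0.00723). As a share of the summed abundance of Itga7, this transcript made up 8.36%, 7.41% and 8.23% in mdx sln+/-, 4.81%, 6.36% and 6.62% in mdx, and 3.52% and 1.08% in WT. No source used here says if the values take transcript length into account. Shares here and below are therefore shares of the values, which may differ from shares of molecules.

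The full-length transcripts of Itga7 did not pass. Itga7-201, with 63.7% to 66.5% of the abundance in mdx sln+/-, 65.8% to 69.6% in mdx and 70.0% to 75.7% in WT, averaged 6.81 ± 0.19 in mdx (SD, n = 3) and 6.56 ± 0.02 in WT (SD, n = 2), a difference of 0.25 ± 0.12 (limma, adjusted p = 0.236). Itga7-202 read 5.38, 5.48 and 5.18 in mdx 1, 2 and 3, and 4.99 and 4.72 in WT 1 and 2, a difference of 0.50 ± 0.15 (limma, adjusted p = 0.0771).

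Both transcripts of Itga5 passed in mdx against WT. Itga5-202 read 3.55, 3.33 and 3.54 in mdx sln+/- 1, 2 and 3, 3.54, 3.76 and 3.53 in mdx 1, 2 and 3, and 2.70 and 2.82 in WT 1 and 2. The difference of mdx from WT was 0.85 ± 0.13 (limma, adjusted p = 0.0141), 1.81-fold, and without WT 2 it did not pass (0.91, adjusted p = 0.0528). The full-length Itga5-201 averaged 5.27 ± 0.17 in mdx and 4.77 ± 0.12 in WT, a difference of 0.49 ± 0.12 (limma, adjusted p = 0.0482). Left out in turn, any 1 of the 8 libraries ended that call (0.36 to 0.59, adjusted p from 0.052 to 0.144). Itga5-202 made up 20.0% to 25.7% of the Itga5 abundance in mdx and 17.7% to 18.2% in WT.

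**Figure D4:**
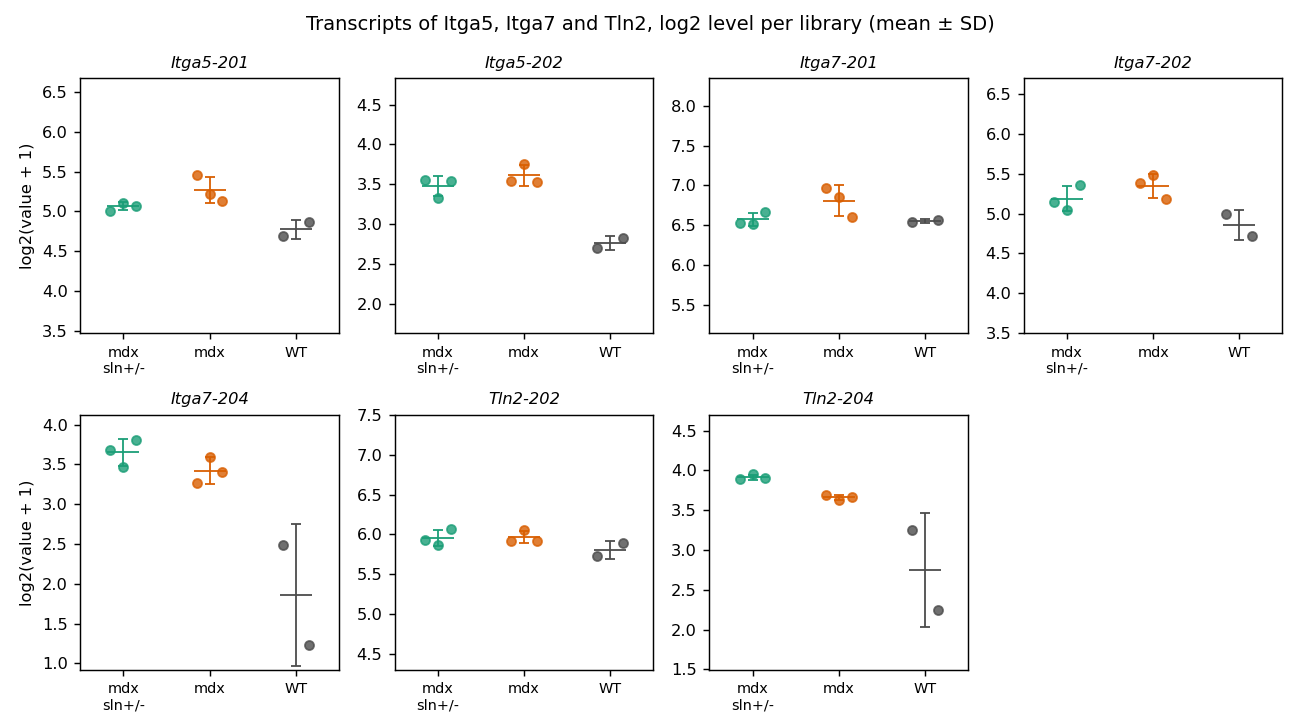
Log2 level, log2(value + 1), of 7 transcripts of Itga5, Itga7 and Tln2 in every library of mdx sln+/- (n = 3), mdx (n = 3) and WT (n = 2); points are libraries and bars the mean ± SD, and the y axes do not start at 0. The WT libraries of Itga7-204 stand at 2.49 and 1.23, and those of Tln2-204 at 3.25 and 2.24, all below the mdx groups.

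Of the 31 transcripts 0 passed in mdx sln+/- against mdx, as did 0% of all transcripts tested (limma; 2670 transcripts, 9.2%, had an unadjusted p under 0.05). Itga7-204 differed there by 0.23 ± 0.29 (limma, adjusted p = 0.836). Against WT, mdx sln+/- had 3 of 31 called, all higher, where 10.1% of all transcripts tested were called and 5.39% as higher. These were Itga5-202 (0.71 ± 0.13; adjusted p = 0.02), Itga7-204 (1.79 ± 0.34; adjusted p = 0.0211) and Tln2-204 (1.17 ± 0.26; adjusted p = 0.0339). Without WT 2, Itga7-204 stood at 1.16 and Tln2-204 at 0.66, both still called (adjusted p = 0.0421 and 0.0448), and without WT 1 at 2.42 and 1.67. The call of Itga7-204 ended without mdx sln+/- 1 or mdx sln+/- 3 (1.77 and 1.68), that of Tln2-204 without any 1 library of the mdx or mdx sln+/- groups (1.15 to 1.18), and that of Itga5-202 without WT 1, WT 2, mdx sln+/- 1 or mdx sln+/- 3 (0.65 to 0.77). Tln2-204 is a short transcript with 20 exons, annotated without its start, and shares 3205 of its 3251 bases with the full-length Tln2-202. It read 3.89, 3.95 and 3.90 in mdx sln+/- 1, 2 and 3, 3.69, 3.63 and 3.67 in mdx 1, 2 and 3, and 3.25 and 2.24 in WT 1 and 2. Every library of the mdx groups lay above both WT libraries, and mdx sln+/- lay above mdx without passing the test (0.25 ± 0.23; limma, adjusted p = 0.762). In mdx against WT Tln2-204 stood at 0.92 ± 0.26 (limma, adjusted p = 0.0711) and did not pass. That difference was 1.43 without WT 1 and 0.41 without WT 2, so its size depended on which WT library was kept. The full-length Tln2-202 averaged 5.96 ± 0.07 in mdx and 5.81 ± 0.11 in WT (0.15 ± 0.10; limma, adjusted p = 0.387).

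The transcripts of highest abundance of the other genes did not pass in any comparison. In mdx against WT, Tln1-201 stood at 0.46 ± 0.13 (limma, adjusted p = 0.0651), Itgb1-201 at -0.04 ± 0.10, Ilk-212 at 0.03 ± 0.13 and Lims1-202 at -0.10 ± 0.10. Vcl and Parva were measured through 1 transcript each.

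Among the genes whose log2 levels followed Itga5 most closely over the 8 libraries was Nelfa (Pearson r = 0.993), and those nearest to Tln1 were Prex1 and Fam43a (r = 0.991 each). These are descriptions of 8 libraries that share the 3 genotypes.

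Other genes of the same pathway were set beside the 10 in lists chosen with earlier results of these data known. The list counts stand against 15.1% of all genes tested called in mdx against WT, with 8.15% called as higher. Of 13 other integrin subunits tested, 3 rose in mdx against WT and 0 fell, with a list median of 0.25. Itga1, a collagen-binding alpha subunit, stood at 0.75 ± 0.11 (limma, adjusted p = 0.00955) and Itgb6, a beta subunit known from epithelium, at 1.78 ± 0.30 (0.0128), and the third was Itga6, a laminin-binding alpha subunit. Of 4 leukocyte integrin subunits 2 rose: Itgam by 0.65 ± 0.12 and Itgb2 by 0.91 ± 0.18, the subunits of the complement receptor of macrophages and neutrophils.

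The laminin and fibronectin ligands held 7 of 18 tested genes that rose and 0 that fell, with a median of 0.34. The laminin chains Lamb1 and Lama4 rose by 0.63 ± 0.09 and 0.65 ± 0.11, and Lamb2, Agrn, Hspg2, Tnc and Vtn also rose. Fn1, which encodes fibronectin, the ligand of the Itga5 product, stood at 0.11 ± 0.21 (limma, adjusted p = 0.748), and Lama2, the laminin chain of muscle basement membrane, at -0.03 ± 0.11 (limma, adjusted p = 0.883). These 2 are named as ligands of the Itga5 and Itga7 products and were added after their values were seen.

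Of 24 focal adhesion signalling and adaptor genes 4 rose and 0 fell (median 0.13), among them the actin regulator Vasp by 0.83 ± 0.11 and the adaptor Nck2 by 0.63 ± 0.09. Of 16 kindlins and regulators of integrin activity 1 rose, the endocytic adaptor Dab2 by 0.56 ± 0.14, and 1 fell, Kank1, which binds talin, by 0.39. Of 26 costamere and Z-disc actin linkers 2 rose (Flnc and Des) and 2 fell, among them the Z-disc protein gene Pdlim3 at -1.08 ± 0.18. None of these lists had a called gene in mdx sln+/- against mdx. In mdx sln+/- against WT 15.9% of all genes tested were called, with 9.41% called as higher. For mdx sln+/- against WT the numbers of called genes, higher and lower, were 5 and 0 for other integrins, 0 and 0 for leukocyte integrins, 6 and 0 for ligands, 3 and 0 for focal adhesion genes, 1 and 1 for kindlins and regulators, and 0 and 3 for costamere and Z-disc linkers.

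**Figure D5:**
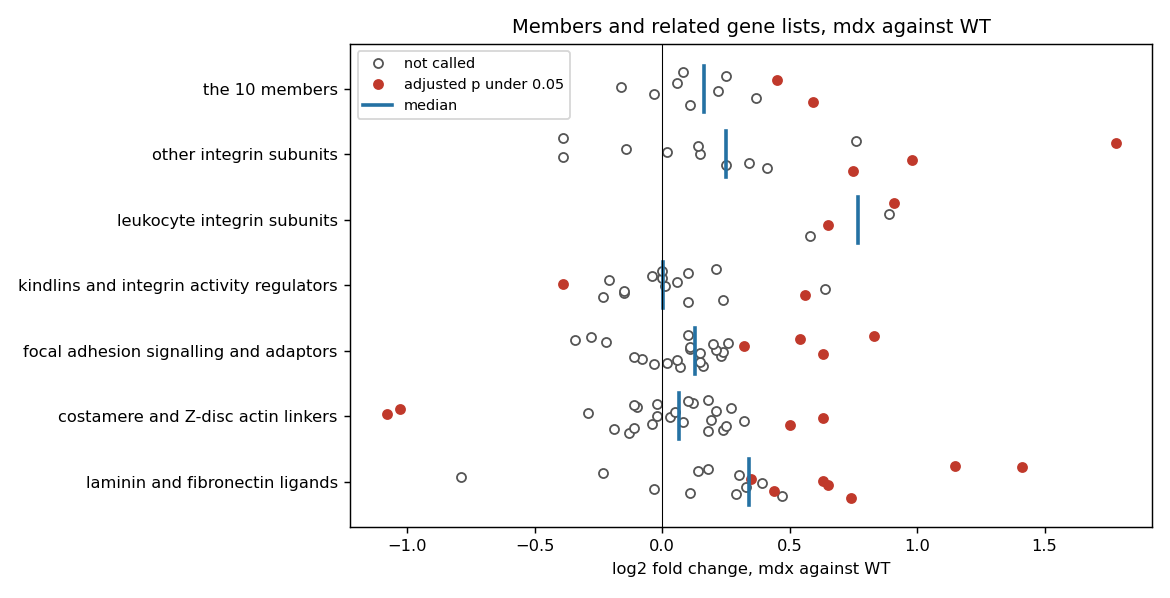
Log2 fold change in mdx against WT (x axis) of the 10 genes and of the 6 related lists; each point is a gene, filled red where the adjusted p was under 0.05, and blue bars are medians. The 10 genes have a median of 0.16, the ligands 0.34 and the kindlins 0.00, and Itgb6 at 1.78 is the point farthest to the right.

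Several of the genes are used by more than 1 cell type, so marker lists were read beside them. Of all genes tested 8.15% were called as higher in mdx against WT, with a median of 0.02. The list medians were 0.55 for macrophage, 0.13 for fibroblast and 0.27 for endothelial markers. For smooth muscle and pericyte markers the median was 0.28, and for cardiomyocyte markers 0.05. Of 10 macrophage markers 3 rose in mdx against WT (Adgre1 by 0.78 ± 0.16 and Ccr2 by 1.23 ± 0.22, and Cx3cr1), and their summed abundance was 190 to 242 in mdx sln+/-, 188 to 261 in mdx and 142 to 152 in WT. Of 10 fibroblast markers Col1a1 rose (0.92 ± 0.22) and Col1a2 stood at 0.62 ± 0.19 without passing; the sums were 1560 to 1690 in mdx sln+/-, 1530 to 1610 in mdx and 1280 to 1870 in WT. Of 10 endothelial markers Tek (0.35 ± 0.09) and Emcn (0.34 ± 0.07) rose, with sums of 900 to 988 in mdx sln+/-, 865 to 960 in mdx and 736 to 916 in WT. Of 10 smooth muscle and pericyte markers Notch3 (0.57 ± 0.15) and Cspg4 (0.58 ± 0.15) rose, with sums of 685 to 856 in mdx sln+/-, 692 to 890 in mdx and 619 to 634 in WT. The cardiomyocyte markers had 0 of 10 called, and their sums, the tissue's own, were 60500 to 64100 in mdx sln+/-, 59100 to 64500 in mdx and 58200 to 58800 in WT. Of 6 platelet markers listed only 2 were tested, with a median of 0.26. Pf4 rose (0.65 ± 0.17), and the other was not called. Their sums were 6.55 to 7.27 in mdx sln+/-, 6.61 to 9.22 in mdx and 4.11 to 5.89 in WT. The part of these cells in the values of Itga5, Tln1 and the others was not tested.

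Y-linked genes also varied within groups: Eif2s3y read 3.29, 4.14 and 1.31 in mdx sln+/- 1, 2 and 3, 5.91, 4.01 and 5.79 in mdx 1, 2 and 3, and 6.11 and 0.92 in WT 1 and 2. With WT 2 and mdx sln+/- 3 left out, which read lowest for Y-linked genes, Itga5 stood at 0.67 in mdx against WT (limma, adjusted p = 0.0768) and Tln1 at 0.41 (adjusted p = 0.231). The part of sex or of Y-linked expression in the results was not tested beyond these fits.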

How the data were processed

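The authors deposited 1 table of log2 values by transcript, with 16 columns that give each of the 8 libraries an r1 and an r2 column, per the file headers (0 columns unmapped). The submitters' processing notes name STAR 2.6.1, the mm10 build, Partek and limma. The range of the deposited values (3.07e-05 to 16.2) is the ground for reading them as log2(normalized abundance + 1). The meaning of r1 and r2 is not given. Their correlation was 0.981 to 0.987 in each library, and the mean of the pair was used as 1 replicate. The values are not counts, so depth and its precision are unknown.

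Linear values were summed over the transcripts of a gene and expressed as log2(value + 1), which understates changes of low genes. The mean of mdx 2 and mdx sln+/- 2 equalled that of the other mdx and mdx sln+/- libraries in every transcript (largest difference 5.12e-05; other choices of libraries gave an SD of 0.127 to 0.199), so a term with this contrast was removed before deposit. The design had allowed for counts; its stated alternative for log2 values, limma 3.58.1 in R 4.3.3, was used. The model held the group and that term over all 8 libraries (4 residual degrees of freedom, median prior degrees of freedom 3.37 for genes and 3.85 for transcripts), with a trended prior and Benjamini-Hochberg adjustment over all 13783 genes or 29021 transcripts, at a threshold of 0.05. In the main fit, estimates for the 10 genes and their transcripts equal differences of group means within rounding. For other genes, summed over transcripts, they can differ slightly. In fits with a library left out or other terms, the model terms can shift estimates away from the differences of the means that remain. The fits were tested on simulated data first. Alternatives were other model terms, fewer libraries, other scaling, another pseudocount, other filters, the r1 or r2 columns alone and 1 transcript per gene.

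The 10 genes and all lists were chosen with earlier results of these data known. From each list the 2 genes with the smallest adjusted p in mdx against WT are named, for each called gene of the 10 the 2 genes with the highest r (mean log2 value of at least 1), and of the transcripts the most abundant of each gene and those called; Itga7-202 and further list genes were added after values were seen. Of the genes this rule names, 2 are not reported here. No label says that replicate numbers pair the libraries. Deviations of same-numbered mdx and mdx sln+/- libraries had an r of -0.258, -1 and -0.344, but the removed term forces the -1 and constrains the others, so these values say nothing on pairing, and the libraries were treated as unpaired. Positions and sequences are from GENCODE M21 (GRCm38). Python 3.11.15 was used for sequences and figures.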

Additional observations from a re-analysis of the deposited data

How the results depend on the processing

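Depth is unknown and WT has 2 libraries, which limits the precision of every comparison with WT. Each of 22 alternatives was run for genes and 21 for transcripts. The alternatives without mdx 2 and without mdx sln+/- 2 are nearly the same fit, because in both the term takes up the other library. The plain-named fit holds only mdx 3 and mdx sln+/- 3 beside WT. Itga5 in mdx against WT kept its direction in 22 of 22 and its call in 18 (0.46 to 0.68), and Tln1 kept its direction in 22 and its call in 8 (0.32 to 0.52). In mdx sln+/- against WT Itga5 kept its call in 9 (0.29 to 0.48) and Tln2 in 6 (0.14 to 0.32). No gene tested was called in mdx sln+/- against mdx under any alternative, nor was any of the 31 transcripts of the 10 genes. Causes were not tested.

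In mdx against WT the number of the 10 genes called was 2, and it was 3 in the r1 columns alone. It was 5 with the group only (removed term not fitted), 0 with name style as a further term, with plain-named libraries only, with only the 2 groups, and without the low Y-linked libraries, and 1 with median-ratio scaling, upper-quartile scaling, the r2 columns or the most abundant transcript of each gene. The 31 transcripts had 3 called, against 7 with the group only, 0 in the same 4 fits and 1 in the r2 columns. Over all genes 2080 were called, 3798 with the group only, 559 with name style, 124 in plain-named libraries, 529 with only the 2 groups and 154 without the low Y-linked libraries. With 1 library left out the counts were 1 to 2 of the 10 genes, 0 to 3 of the transcripts and 638 (without WT 2) to 1811 of all genes.

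In mdx sln+/- against WT 2 of the 10 genes were called, 1 with the replicate block, with only the 2 groups and in the r1 or r2 columns, and 0 with name style, plain-named libraries, no low Y-linked libraries, either scaling or the most abundant transcript. Of the transcripts 3 were called, 6 with the group only, 0 with name style, plain-named libraries or no low Y-linked libraries, and 1 in the r1 or r2 columns. Over all genes 2193 were called (1297 higher, 896 lower), 3996 with the group only, 711 with name style, 349 in plain-named libraries and 66 without the low Y-linked libraries. With median-ratio scaling 931 were higher and 1137 lower, and with upper-quartile scaling 1000 and 1079. With 1 library left out the counts were 0 to 2 of the 10 genes, 0 to 3 of the transcripts and 316 (without mdx sln+/- 1) to 2402 of all genes.

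With replicate number as a block in place of the removed term, 2397 genes were called in mdx against WT and 2363 in mdx sln+/- against WT, with 2 and 1 of the 10 genes among them; of the calls among the 10 genes it ended that of Tln2 in mdx sln+/- against WT (0.25, adjusted p = 0.0528). No label pairs the libraries by number.

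Of the differences that were not called, 87 values in 21 results changed sign or reached 0.00 (-0.11 to 0.12), 0 of them called; ranges here are over 1 library left out in turn. In mdx against WT these were Itgb1 (0.01 with name style, 0.06 plain-named, range -0.10 to 0.00), Itgb1-201 (0.04, 0.12, 0.01 without low Y-linked libraries, 0.03 in r1, range -0.15 to 0.06), Ilk-212 (-0.02, -0.01, -0.01, -0.07 in r2, range -0.10 to 0.10) and Ilk (range 0.00 to 0.19). For mdx sln+/- against WT they were Itga7-201 (-0.05 with name style, -0.04 without low Y-linked libraries, -0.04 median-ratio, -0.03 upper-quartile, -0.05 in r2, range -0.05 to 0.05), Lims1-202 (0.00 plain-named), Ilk-212 (-0.02 with only the 2 groups, -0.01 median-ratio, -0.08 in r2, range -0.02 to 0.11), Itgb1 (-0.02 median-ratio, 0.00 upper-quartile) and Parva with its transcript Parva-201 (0.00 median-ratio, range 0.00 to 0.11). For mdx sln+/- against mdx they were Tln2 (-0.02 in indexed libraries, -0.02 without low Y-linked libraries, -0.03 and -0.02 with the scalings, -0.01 by the most abundant transcript, range -0.02 to 0.04), Ilk (-0.03 indexed, -0.03 with each scaling, -0.01 in r1, range -0.05 to 0.09), Lims1 (-0.03, -0.06 without low Y-linked libraries, -0.03 with each scaling, range -0.06 to 0.06) and Lims1-202 (-0.02, -0.04, -0.03, -0.02, range -0.04 to 0.06). Itgb1bp2 and Itgb1bp2-201 gave 0.00 there in indexed libraries (ranges -0.07 to 0.02 and -0.06 to 0.01), Ilk-212 gave -0.01 with each scaling and -0.02 in r2 (range -0.11 to 0.12), Parva and Parva-201 gave 0.00 in r1 (range -0.03 to 0.02), Tln2-202 ranged from -0.07 to 0.08 and Itga5-202 from -0.19 to 0.00.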
